A study of Mus musculus with 19 samples.

Results

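The 9 genes described here are transcription factors that pattern the front of the embryonic neural tube, namely Otx1, Otx2, Emx1, Emx2, Lhx2, En1, En2, Gbx2 and Nr2e1. They were taken by symbol from an expression table of 22958 genes, and all 9 were listed. RNA-seq covered 3 libraries of glial cells (glia) and 4 libraries of glial progenitor cells (GPC), both derived in culture from mouse embryonic stem cells (ESCs). The comparison asks which brain region genes the cells express after retinoic acid, and how this differs between glia and GPC. Binding of SOX3 (2 samples) and SOX9 (3 samples) in GPC adds where these SOX factors were found near the same genes. Per the labels' protocols, ESCs were grown without feeder cells, neural differentiation was induced on fibronectin with 0.1 µM all-trans retinoic acid in N2B27 medium, and magnetic beads were used at day 8 to pull out cells carrying A2B5, an antigen of glial precursors. The isolated cells were expanded with EGF and FGF2 at 10 ng/ml. The labels carry this text for both groups, so they do not say how the glia were made from the progenitors, nor name the ESC line, the number of separate cultures or any genetic change. P-values therefore measure the spread between these libraries, which may be technical.

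The neural tube is divided along its length by transcription factors with nested domains. Otx1 and Otx2 mark the forebrain and midbrain, Emx1, Emx2, Lhx2 and Nr2e1 act in the telencephalon, En1 and En2 mark the territory around the junction of midbrain and hindbrain, and Gbx2 marks the anterior hindbrain, where Otx2 and Gbx2 repress each other. Retinoic acid signalling favours hindbrain and spinal cord fates, which are set by the Hox genes, over forebrain fates. The name of the group covers more than its best known domains, since En1, Lhx2 and Gbx2 are also expressed in the embryonic spinal cord, so none of them marks the anterior brain by itself.

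Reads counted in genes ranged from 6897294 to 22439837 per library. The first principal component of all tested genes held 90.4% of the variance and separated glia from GPC, and the second, with 4.48%, set GPC replicate 3 apart from the other GPC libraries. For some genes, among them Lhx2, the change is therefore also given without that library. Markers of both labels were read. The summed level of 6 astrocyte markers was 3322 to 3847 RPKM in glia and 348.4 to 366.5 RPKM in GPC. Most of the glia sum came from Gfap, with a mean of 3258 RPKM in glia and 8.37 RPKM in GPC. Of the 6 markers 4 rose in glia and 2 fell. The summed level of 4 neural progenitor markers was 3154 to 3233 RPKM in glia and 6834 to 7324 RPKM in GPC. That difference came mostly from Fabp7, at 1659 RPKM in glia and 5529 RPKM in GPC. Of the 4 progenitor markers 1 rose and 2 fell. Over all tested genes 35.2% rose and 35.2% fell. RPKM is the authors' read count per kilobase of gene, scaled to a read total of the library, so levels of different genes can be set side by side on it.

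Before their values, the sequences upstream of 4 of the genes are shown, because the results below turn on these genes. Gbx2 was the one with an assigned SOX3 peak near its start, Lhx2 changed most, En1 had the one peak shared by SOX9 and NFIA, and Otx2 had a pair of SOX9 peaks but almost no reads. Each run is the 250 bases before a transcription start, written 5′ to 3′ on the strand of the gene, from RefSeq on GRCm38.p6, a build other than the mm9 of the peak lists. Of the 9 genes 7 had an entry, and En2 and Otx1 had none. The Gbx2 run is chr1:89931177-89931426 (minus strand), the Lhx2 run chr2:38339031-38339280 (plus strand, the first of 2 listed starts), the En1 run chr1:120602237-120602486 (plus strand) and the Otx2 run chr14:48665110-48665359 (minus strand, the third of 4 listed starts). Capitals mark matches on either strand to the motifs searched.
Gbx2: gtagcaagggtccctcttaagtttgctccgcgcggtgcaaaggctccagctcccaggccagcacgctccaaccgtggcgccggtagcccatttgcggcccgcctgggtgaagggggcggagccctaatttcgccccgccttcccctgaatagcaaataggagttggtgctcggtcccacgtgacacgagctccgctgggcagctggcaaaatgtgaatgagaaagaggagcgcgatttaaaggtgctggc
Lhx2: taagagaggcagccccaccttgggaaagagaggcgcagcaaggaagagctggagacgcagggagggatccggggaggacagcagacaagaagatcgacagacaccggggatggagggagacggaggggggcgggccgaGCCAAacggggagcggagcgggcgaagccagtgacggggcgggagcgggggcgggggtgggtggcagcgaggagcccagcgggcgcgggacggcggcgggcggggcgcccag
En1: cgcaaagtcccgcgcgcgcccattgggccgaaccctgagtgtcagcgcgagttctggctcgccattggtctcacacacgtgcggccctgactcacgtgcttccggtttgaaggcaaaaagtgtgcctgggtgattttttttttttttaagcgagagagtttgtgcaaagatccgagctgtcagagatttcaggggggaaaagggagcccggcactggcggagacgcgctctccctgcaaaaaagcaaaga
Otx2: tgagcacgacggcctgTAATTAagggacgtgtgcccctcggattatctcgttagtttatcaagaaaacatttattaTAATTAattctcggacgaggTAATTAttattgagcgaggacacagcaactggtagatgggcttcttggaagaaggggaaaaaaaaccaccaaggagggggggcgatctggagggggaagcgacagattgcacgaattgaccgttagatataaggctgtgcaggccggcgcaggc

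The motifs searched were the SOX core ACAANG, the palindromic nuclear factor I (NFI) site and the single NFI arm TTGGC (which the palindrome contains), the nuclear receptor motif AGGTCA and the homeodomain core TAATTA. The Gbx2 and En1 runs held none of them. The Lhx2 run held 1 NFI arm (as GCCAA), a motif present in 41.5% of the 32851 promoter runs in the table. The other Lhx2 start held none of the motifs. The Otx2 run held 3 matches to TAATTA, which 4.84% of all runs held at least once. It was the Otx2 start with the most matches, while the first start held 1 and the other two none. ACAANG was present in 36.3%, AGGTCA in 14.0% and the NFI palindrome in 0.0365% of all runs. A match of this kind describes the letters, not a bound site. The SOX peaks assigned to these genes lay outside the runs, the closest 1.53 kb from its start, so the runs do not show their letters.

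Expression split the 9 genes into 5 that were read at moderate levels and 4 that were nearly silent. Lhx2, Gbx2, En2, En1 and Emx2 averaged between 2.60 and 11.7 RPKM in either group and passed the filter on low counts. Otx1, Otx2, Emx1 and Nr2e1 stayed below 0.25 RPKM in every library, did not pass that filter and were not tested. Of the 5 tested genes, 1 was higher and 2 were lower in glia at an adjusted p below 0.05, against 35.2% of all 13588 tested genes higher and 35.2% lower (quasi-likelihood F test of edgeR, two-sided, p-values adjusted by Benjamini-Hochberg over all tested genes, also for each adjusted p below). Since 70.4% of all tested genes were called, 3 of 5 is close to the share of the whole table and is not a result about these genes as a group. In 4 of the 5 the glia and GPC values did not overlap, 2 of them higher and 2 lower in glia, against 36.9% of all tested genes higher, 32.1% lower and 69.1% in all. In bulk RNA, fewer cells expressing a gene and less RNA per cell cannot be told apart, and this holds for every level given here.

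**Figure D1:**
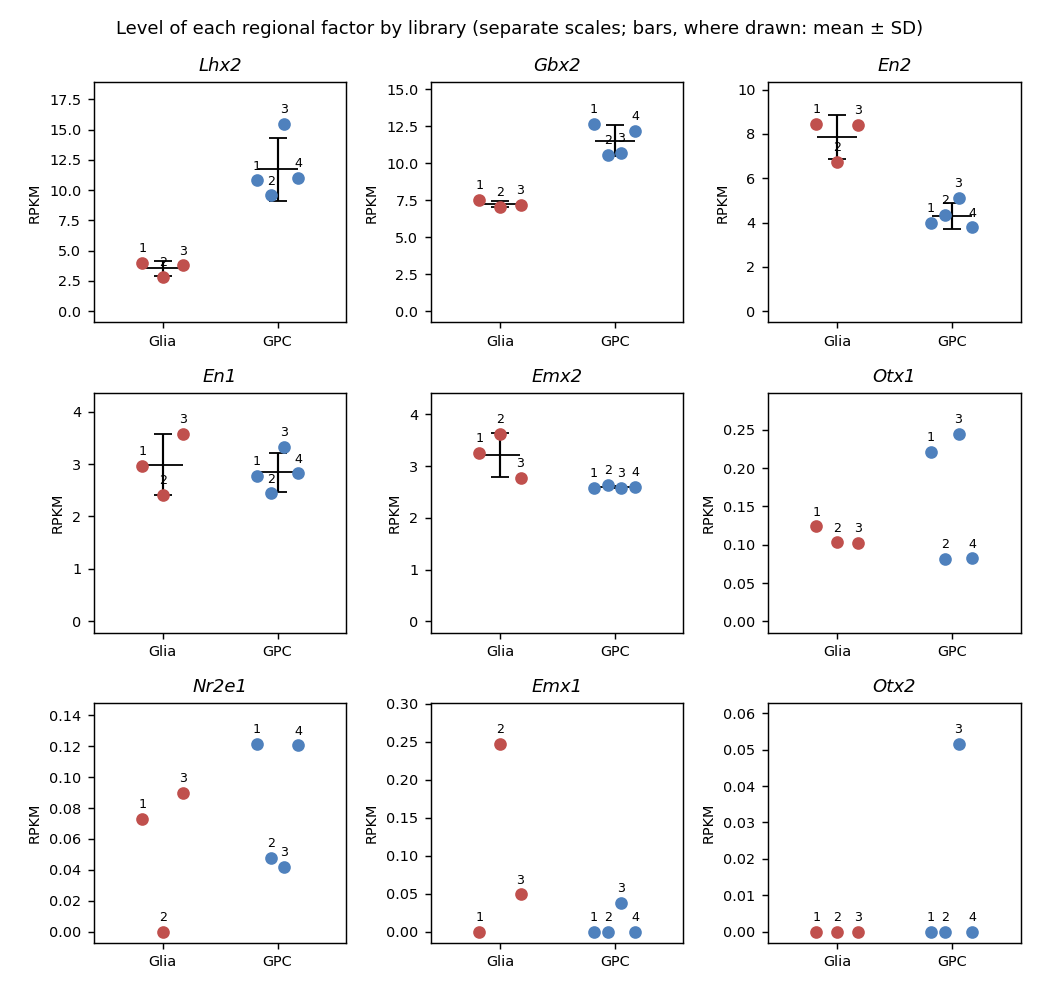
RPKM of each of the 9 regional factors in every library (points, numbered by replicate), glia left and GPC right, each panel on its own scale, with the mean and SD drawn for the 5 genes that passed the filter. Lhx2 and Gbx2 lie lower in all 3 glia libraries, En2 lies higher, En1 overlaps, and the 4 nearly silent genes stay below 0.25 RPKM.

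Lhx2, a LIM homeodomain factor that maintains cortical and retinal progenitors, fell most. It had 4.00, 2.85 and 3.77 RPKM in glia replicates 1 to 3, against 10.8, 9.56, 15.5 and 10.99 RPKM in GPC replicates 1 to 4. All glia libraries were below all GPC libraries, and GPC replicate 3 was the highest. The mean was 3.54 ± 0.609 RPKM in glia (SD, n = 3) and 11.7 ± 2.60 RPKM in GPC (SD, n = 4). Its log2 change was -1.73 ± 0.19 (SE, adjusted p = 2.44e-05 by edgeR), so its level in GPC was 3.31-fold that in glia. Without GPC replicate 3 the change was -1.53 (adjusted p = 1.53e-07).

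Gbx2, the homeodomain factor of the anterior hindbrain, fell by less. It had 7.50, 7.05 and 7.19 RPKM in the glia libraries and 12.7, 10.6, 10.7 and 12.2 RPKM in the GPC libraries. The groups did not overlap, and the 3 glia libraries differed by less than 0.5 RPKM. The mean was 7.25 ± 0.232 RPKM in glia (SD, n = 3) and 11.5 ± 1.06 RPKM in GPC (SD, n = 4), a log2 change of -0.69 ± 0.098 (SE, adjusted p = 0.000113 by edgeR). Relative to Lhx2 in the same library, Gbx2 stood at 1.87, 2.47 and 1.91 times its RPKM in glia and 1.18, 1.11, 0.69 and 1.11 times in GPC.

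The paired Engrailed genes, homeodomain repressors of the midbrain and cerebellum, differed from each other. En2 rose, with 8.47, 6.73 and 8.40 RPKM in glia and 3.99, 4.34, 5.12 and 3.78 RPKM in GPC. Every glia library lay above every GPC library, at a mean of 7.87 ± 0.983 RPKM (SD, n = 3) in glia and 4.31 ± 0.587 RPKM (SD, n = 4) in GPC. The log2 change of En2 was 0.84 ± 0.13 (SE, adjusted p = 0.00022 by edgeR). En1 had 2.97, 2.41 and 3.58 RPKM in glia and 2.78, 2.44, 3.33 and 2.82 RPKM in GPC. The En1 groups overlapped, and its log2 change of 0.059 ± 0.17 (SE) did not pass (adjusted p = 0.764 by edgeR). The ratio of En2 to En1 within a library was 2.85, 2.79 and 2.35 in glia and 1.44, 1.78, 1.54 and 1.34 in GPC, so the ratios of the groups did not overlap. That ratio was not tested, because the pair was compared after its values were known.

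Emx2, a homeodomain factor of the cortical primordium and of the hippocampus, differed little. It had 3.255, 3.62 and 2.775 RPKM in glia and 2.58, 2.63, 2.57 and 2.60 RPKM in GPC. Every glia value was above every GPC value, but the log2 change of 0.26 ± 0.13 (SE) did not pass (adjusted p = 0.0959 by edgeR). Without glia replicate 3 it passed, with a log2 change of 0.36 (adjusted p = 0.0465 by edgeR). Emx2os, a noncoding antisense gene at the same locus, had 38, 23 and 38 reads in glia and 20, 18, 15 and 12 reads in GPC and rose by 1.14 ± 0.31 on the log2 scale (adjusted p = 0.00682 by edgeR). No source says whether the counting used strand, and without strand the reads of Emx2 and Emx2os cannot be told apart where the genes overlap.

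**Figure D2:**
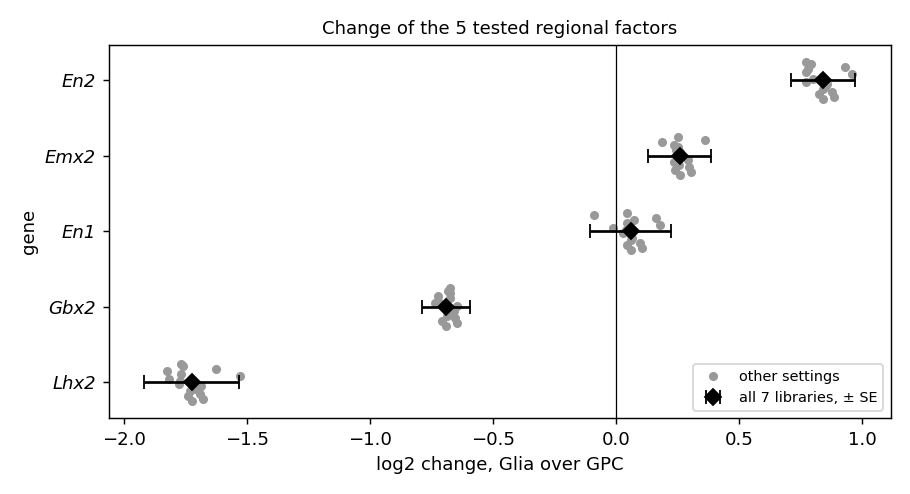
Log2 change, glia over GPC, of the 5 tested regional factors (diamonds with SE, from the fit of all 7 libraries) and under the other settings (grey points, spread vertically for view only). Lhx2 and Gbx2 stay below 0 and En2 above it under every setting shown, while the En1 points fall on both sides of 0.

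The remaining 4 genes were at the limit of these libraries. Otx1, the homeodomain factor of the forebrain and midbrain that also acts in cortical neurons, had 6, 2 and 5 reads in glia and 8, 3, 16 and 3 reads in GPC. Its summed read rate in glia was 0.641 times that in GPC, with a 95% Poisson interval of 0.307 to 1.265 that covers counting error only. Nr2e1 (TLX), an orphan nuclear receptor that keeps adult neural stem cells undifferentiated, had 4, 0 and 5 reads in glia and 5, 2, 3 and 5 reads in GPC, a ratio of 0.887 (interval 0.342 to 2.16).

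Emx1, the homeodomain factor of cortical excitatory neuron progenitors, had 0, 2 and 1 reads in glia and 0, 0, 1 and 0 reads in GPC. With 3 reads in glia and 1 in GPC the ratio of 4.43 had an interval of 0.356 to 232.8 and gives no direction. Otx2, which is needed to form the forebrain and midbrain, had 0 reads in all 3 glia libraries and 0, 0, 2 and 0 reads in GPC. A count of 0 in a glia library allows a rate of up to 0.173 to 0.435 CPM (3 reads of its total), and 3 reads of Otx2 would be worth 0.0773 to 0.252 RPKM in these 7 libraries. The noncoding gene Otx2os1 beside it had 0 reads in every library. Without the low count filter the adjusted p was 0.31 for Otx1, 0.287 for Otx2, 0.305 for Emx1 and 0.78 for Nr2e1 by edgeR, so no difference was detectable at this depth.

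The order of the levels differed between the groups. In glia it ran En2, Gbx2, Lhx2, Emx2, En1, then Otx1, Emx1, Nr2e1 and Otx2. There the ranges of En2 and Gbx2 overlapped, as did those of Lhx2 and Emx2 and of Emx2 and En1, and every neighbouring pair among the last 4. In GPC it ran Lhx2, Gbx2, En2, En1, Emx2, then Otx1, Nr2e1, Otx2 and Emx1. The ranges of Lhx2 and Gbx2 overlapped in GPC, as did those of En1 and Emx2 and those of each neighbouring pair among the last 4. Relative to all 22958 listed genes, Lhx2 stood at percentile 53.3 in glia and 69.4 in GPC, En2 at percentile 62.7 in glia and 57.2 in GPC, and Gbx2 at percentile 61.5 in glia and 69.1 in GPC. Otx1 stood at percentile 34.7 in glia and 38.9 in GPC.

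Some Hox genes, which set hindbrain and spinal cord identity, were read at higher levels than any of these factors, while others were low or unread. The 39 Hox genes summed to 278.5, 272.1 and 290.8 RPKM in glia and to 625.3, 610.7, 460.1 and 637.6 RPKM in GPC. Otx1, Otx2, Emx1, Emx2, Lhx2 and Nr2e1 together summed to 7.46, 6.82 and 6.79 RPKM in glia and to 13.7, 12.3, 18.5 and 13.8 RPKM in GPC. Both sums were lower in each glia library than in each GPC library, and GPC replicate 3 was the highest GPC library for the anterior sum and the lowest for the Hox sum. The lower anterior sum in glia was that of Lhx2 (mean 3.54 RPKM in glia, 11.7 RPKM in GPC). Emx2 was not lower in glia (3.22 RPKM against 2.60 RPKM in GPC), and the other 4 genes stayed below 1 RPKM in every library. En1, En2 and Gbx2 summed to 18.9, 16.2 and 19.2 RPKM in glia and to 19.5, 17.4, 19.1 and 18.8 RPKM in GPC, where the groups overlapped. In glia 11 and in GPC 12 of the 39 Hox genes averaged above the highest of the 9 factors, and 16 stayed below 1 RPKM in every library. The 15 hindbrain and caudal genes outside the Hox clusters summed to 30.1 to 33.8 RPKM in glia and 31.7 to 42.3 RPKM in GPC, most of it from Meis1 (25.7 RPKM in glia, 26.5 RPKM in GPC), and the 9 factors to 23.0 to 26.4 RPKM in glia and 29.7 to 37.6 RPKM in GPC.

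**Figure D3:**
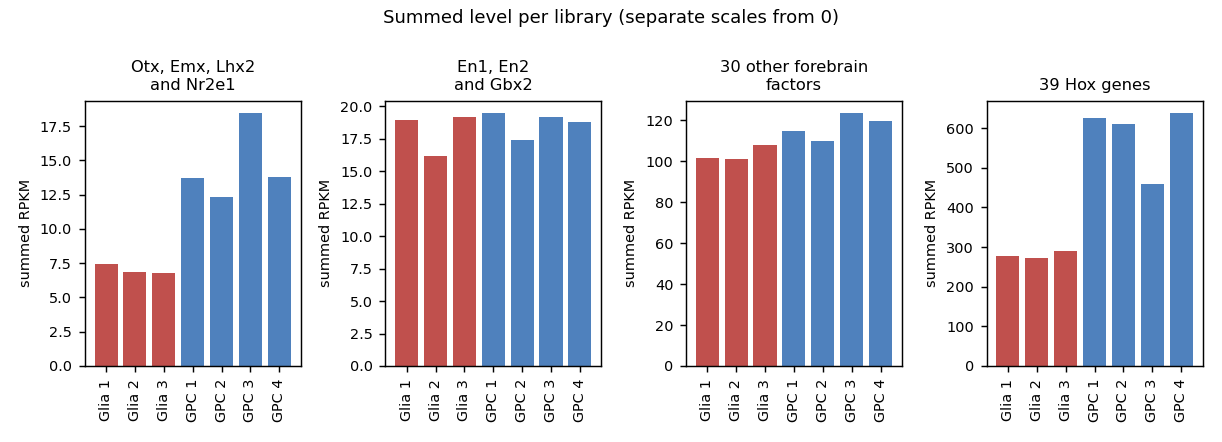
Summed RPKM per library of the forebrain and midbrain factors, of En1, En2 and Gbx2, of 30 other forebrain factors and of 39 Hox genes, glia libraries left of GPC libraries, each panel on its own scale from 0. The Hox sum is 272.1 to 290.8 RPKM in glia and 460.1 to 637.6 RPKM in GPC, above both sums of the 9 factors in every library, over many more genes.

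Most Hox genes that changed were lower in glia. Of 39 listed, 25 were tested, 5 rose and 14 fell, beside 35.2% higher and 35.2% lower over all tested genes. The median log2 change of the 25 was -0.59, beside 0.0013 over all tested genes. Hoxb9, of the thoracic spinal cord, fell most, to 3.46 ± 0.512 RPKM in glia against 45.1 ± 18.3 RPKM in GPC (log2 change -3.75 ± 0.46). Its GPC values were 53.3, 52.7, 17.9 and 56.7 RPKM, with replicate 3 apart, and its log2 change was -4.03 without that library. Hoxb6 also fell (-1.73 ± 0.15), while Hoxc8 (1.23 ± 0.19) and Hoxd9 (1.19 ± 0.18) rose, to means of 2.90 and 2.28 RPKM in glia against 1.18 and 0.971 RPKM in GPC. The largest adjusted p among these 4 was 0.000182 (edgeR).

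Other forebrain factors were split, and most were low. Of 30 listed, 25 stayed below 1 RPKM in every library. Among 10 tested, 4 rose and 4 fell, beside 35.2% higher and 35.2% lower over all tested genes. The median log2 change of the 10 was 0.053. It was 0.86 over 28 genes without the low count filter and -0.17 over 5 genes with at least 50 counts in 3 libraries. Six3, of the anterior forebrain and eye, fell to 0.0984 ± 0.0306 RPKM in glia against 0.414 ± 0.0883 RPKM in GPC (-2.16 ± 0.34, adjusted p = 0.000232 by edgeR). With 14 reads over the glia libraries and 93 over the GPC libraries, Six3 had passed the filter through GPC, where it is higher. Sp8, a zinc finger factor of the rostral telencephalon, fell (-0.69 ± 0.24, adjusted p = 0.0239 by edgeR), but its call ended in 4 of the other settings, among them without GPC replicate 2 (adjusted p = 0.0504) and without glia replicate 3 (0.107). Fezf1 and Lhx8 had no reads. The sum over the list was carried by Nr2f1, an orphan receptor of caudal cortex that is also expressed in hindbrain, at 53.2 RPKM in glia and 73.1 RPKM in GPC, and by Pax6, at 26.7 RPKM in glia and 19.4 RPKM in GPC, which is also a factor of the ventricular zone of hindbrain and spinal cord. These 2 were named after their values were seen.

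Genes of the midbrain and isthmus, the signalling centre between midbrain and hindbrain, were low in GPC, and most could not be tested. Of 14 listed, 5 were tested and all 5 rose, beside 35.2% of all tested genes. Their median log2 change was 1.30 (0.44 over 13 genes without the low count filter). In every library 11 of the 14 stayed below 1 RPKM, and Pax5 had no reads. Fgf18, a growth factor of the isthmus that is also made by other tissues, rose to 5.46 ± 0.673 RPKM in glia against 0.335 ± 0.175 RPKM in GPC (log2 change 3.78 ± 0.29, adjusted p = 1.14e-06 by edgeR). Lmx1a, of the midbrain floor plate and the roof plate, rose by 4.55 ± 0.43 on the log2 scale (adjusted p = 5.8e-06 by edgeR), with 104 reads over the 3 glia libraries and 6 reads over the 4 GPC libraries. Without GPC replicate 3 the change of Lmx1a was 5.35. These 5 had passed the filter partly through the group in which they are higher, so neither their common direction nor their median describes the list. Among the untested genes, Pax8 had 2 reads in glia and 17 in GPC and Tal2 2 reads in glia and 16 in GPC, and both were named after their values were seen.

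Of 15 hindbrain and caudal genes outside the Hox clusters 5 were tested, 1 rose and 3 fell, beside 35.2% higher and 35.2% lower over all tested genes. The median log2 change of -2.64 turned to 0.45 over 12 genes without the low count filter. Egr2 (Krox20), of alternating hindbrain segments and also a growth factor response gene, fell to 0.426 ± 0.0952 RPKM in glia against 3.71 ± 2.58 RPKM in GPC (-3.13 ± 0.60, adjusted p = 0.0018 by edgeR). Egr2 reached 7.56 RPKM in GPC replicate 3, and its change was -2.46 without that library. T, the Brachyury gene of the caudal embryo, fell by 3.21 ± 0.51 on the log2 scale (adjusted p = 0.000252 by edgeR) and stayed at or below 2.20 RPKM. Without GPC replicate 3 the log2 change of T was -2.72. Gbx1, the close relative of Gbx2, had 0.216 ± 0.0485 RPKM in glia and 1.33 ± 0.244 RPKM in GPC (-2.64 ± 0.32, adjusted p = 3.6e-05 by edgeR), and was named after its value was seen. T had 12 reads over the glia libraries and 177 over the GPC libraries, and Gbx1 had 13 in glia and 122 in GPC. Both had passed the filter through GPC, where they are higher, so neither the falls nor the median describe the list.

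**Figure D4:**
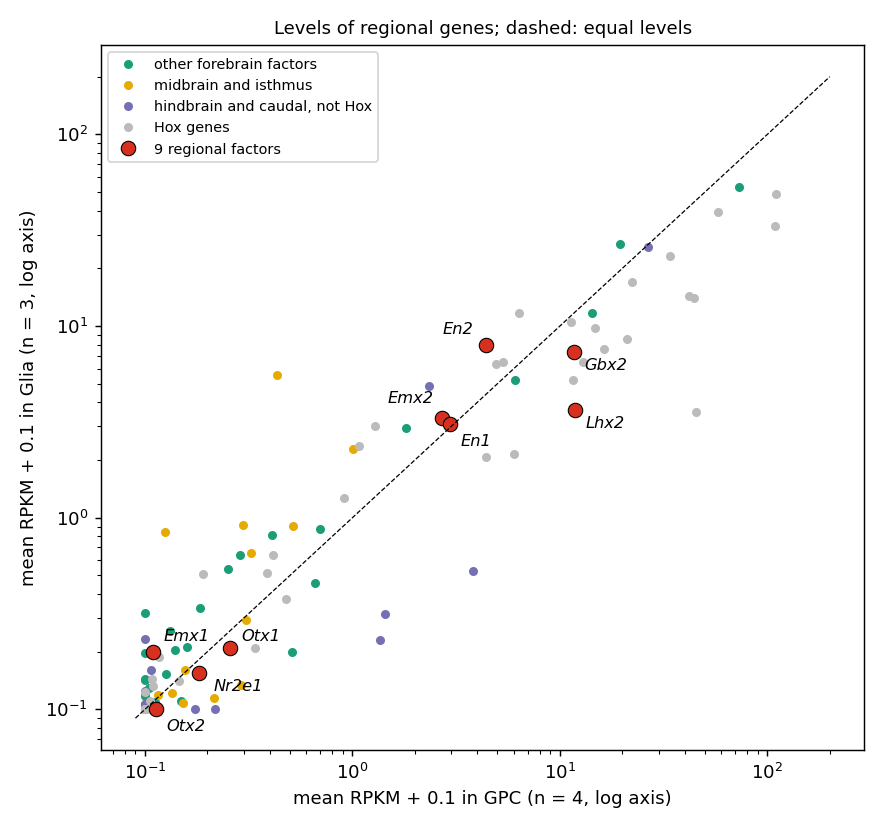
Mean RPKM + 0.1 of each regional gene in GPC (x axis, n = 4) and glia (y axis, n = 3), both axes logarithmic, with the dashed line at equal levels. Lhx2 (3.54 RPKM in glia, 11.7 in GPC) and Gbx2 lie below the line, En2 above it, Emx2 and En1 near it, and Otx1, Otx2, Emx1 and Nr2e1 in the lower left corner. The Hox genes spread over the whole range, with Hoxb8 (48.9 RPKM in glia, 109.4 in GPC) the highest and 16 of 39 below 1 RPKM in every library.

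Genes that respond to retinoic acid were mixed. Of 11 listed, 8 were tested, 3 rose and 3 fell, beside 35.2% higher and 35.2% lower over all tested genes. The median log2 change of the 8 was -0.38. Tgm2, a transglutaminase, rose by 3.42 ± 0.36 on the log2 scale, or 4.03 without GPC replicate 3, and Dhrs3, a retinal reductase, by 1.83 ± 0.22. The larger adjusted p of these genes was 6.89e-05 (edgeR). Rarb, the receptor gene that retinoic acid induces, fell (-0.70 ± 0.13, adjusted p = 0.000569 by edgeR) and stood at 9.11 RPKM in glia and 14.5 RPKM in GPC, and was named after its value was seen.

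For each tested factor the most similar of 45 tested regional genes (the Hox, forebrain, midbrain and hindbrain lists) was sought over the 7 libraries, by the root mean square distance of centred log2(RPKM + 0.1) values. In every case it was a Hox gene. Gbx2 was nearest to Hoxa5 (distance 0.107, against a median of 0.524 over the 45), Emx2 to Hoxd3 (0.133, median 0.461), En1 to Hoxa3 (0.153, median 0.581), En2 to Hoxd8 (0.165, median 0.667) and Lhx2 to Hoxb2 (0.328, median 0.837). Hox genes made up 25 of the 45, and all distances share the same 7 libraries and the difference between the groups.

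Markers of other cell types were examined because several of the 9 factors are also expressed outside the neural tube. Otx2 and Gbx2 are read in early pluripotent cells, and Otx2 in choroid plexus and pigment epithelium. The 8 pluripotency markers summed to 1.54 to 2.98 RPKM in glia and 1.76 to 2.68 RPKM in GPC, with Pou5f1, Zfp42 and Dppa5a at 0 reads, and of 2 tested Esrrb fell (-3.37 ± 0.24). The 10 markers of choroid plexus and pigment epithelium summed to 2.28 to 2.94 RPKM in glia and 0.384 to 0.713 RPKM in GPC, and Folr1, at 2.21 RPKM in glia and 0.163 RPKM in GPC, was the one that was tested and rose (3.63 ± 0.28), while Ttr averaged below 0.03 RPKM in both groups. With 113 reads in glia and 13 in GPC, Folr1 had passed the filter through glia, where it is higher, so its rise does not describe the list.

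The 7 neuronal markers summed to 78.6 to 83.1 RPKM in glia and 30.6 to 35.4 RPKM in GPC, and 4 of 7 rose, led by Syt1 (3.28 ± 0.15) and Dcx (2.69 ± 0.090). All 6 mesenchyme markers rose, led by Dcn (2.96 ± 0.14) and Lum (2.56 ± 0.12), with sums of 564.9 to 671 RPKM in glia and 123.1 to 143.3 RPKM in GPC. Of 6 astrocyte markers 4 rose, led by Gfap and Aqp4, and 2 fell, Aldh1l1 (-1.19 ± 0.20) and Slc1a3 (-0.75 ± 0.067). Of 8 oligodendrocyte lineage markers 6 rose, among them Mobp (8.14 ± 0.28), and 2 fell, Cspg4 (-1.45 ± 0.23) and Olig1 (-1.19 ± 0.12), with sums of 1750 to 2412 RPKM in glia and 1099 to 1211 RPKM in GPC. Without GPC replicate 3 the change was 9.76 for Mobp. Of 4 progenitor markers Nes (-2.63 ± 0.083) and Fabp7 (-1.77 ± 0.070) fell and 1 rose. The largest adjusted p among the marker genes named with a change was 0.000663 (edgeR). These counts stand beside 35.2% higher and 35.2% lower over all tested genes. Except for the pluripotency markers, whose ranges overlapped, these sums differed between glia and GPC without overlap, as did Lhx2, Gbx2 and En2, and their part in those changes was not tested.

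SOX peaks were assigned to 4 of the 9 genes in GPC. The authors' lists assign each peak to 1 gene with a signed distance to its transcription start, by a method that no source states, and hold 1 list per factor, so replicates cannot be compared. SOX3, a factor of neural progenitors, had 1367 peaks, and at least 1 of them was assigned to 4.36% of the symbols in the expression table. Gbx2 was the one of the 9 factors with a SOX3 peak under its own symbol, at chr1:91831324-91831458 (mm9), 1.53 kb upstream of its start. This peak was 135 bp wide, against a median of 167 bp, and belonged to the 3.88% of SOX3 peaks within 2 kb of the assigned start. It overlapped no SOX9 or NFIA peak, and the nearest centre was 91934 bp away for SOX9 and 121461 bp away for NFIA.

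A second SOX3 peak, at chr1:91773080-91773354 (mm9), carries the name D130058E05Rik, which RefSeq now lists as a synonym of Gbx2. Its listed distance of 53.6 kb points to a start at 91719624 or 91826808, depending on strand, and neither is the start at 91829864 that the first peak gives for Gbx2 on the minus strand. It may therefore have been assigned to a separate transcript.

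SOX9, a factor of glial fate, had 2943 peaks, and 8.83% of symbols had at least 1. Of the 9 factors, En1, Otx1 and Otx2 had SOX9 peaks, 4 in all. The En1 peak was at chr1:122549616-122550216 (mm9), 50.9 kb downstream of the start, and the Otx1 peak at chr11:21838292-21838892, 63.0 kb downstream. The Otx2 peaks were at chr14:49346947-49347547 and chr14:49398144-49398744, 60.1 and 111 kb upstream, and both distances give the same start to within 1 bp. All 4 belonged to the 48.1% of SOX9 peaks that lay more than 50 kb from the assigned start, and each was 601 bp wide, as were all SOX9 peaks.

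The En1 peak overlapped an NFIA peak whose centre was 16 bp away, with the authors' score of 14. That is the lowest score in a list of 14164 peaks, whose median score is 16 and whose highest is 1677. Over all SOX9 peaks 28.4% overlapped an NFIA peak. The Otx1 and Otx2 peaks overlapped none, and none of the 4 overlapped a SOX3 peak. Of the genes with SOX9 peaks, Otx1 and Otx2 were among the nearly silent genes in GPC, and the third, En1, did not differ beyond its spread. The 3 genes that changed had no SOX9 peak, and of them Gbx2 alone had a SOX3 peak. No test was made on 9 genes.

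Of 30 other forebrain factors 3 had a SOX3 peak and 3 a SOX9 peak, among them Pax6 with both, 56.6 and 56.7 kb upstream. Six3 had a SOX9 peak 6.83 kb upstream. Of 14 midbrain and isthmus genes 1 had a SOX3 peak and none a SOX9 peak, and of 15 hindbrain and caudal genes 2 had a SOX3 peak and 4 a SOX9 peak. Of 39 Hox genes Hoxb3 alone had a SOX3 peak, 0.258 kb upstream of its start, and none had a SOX9 peak. Among retinoic acid response genes Rarb had 1 SOX3 and 2 SOX9 peaks about 85.1 to 85.3 kb downstream. The genes in this paragraph were named for having peaks.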

How the data were processed

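RNA-seq of 3 glia and 4 GPC libraries and ChIP-seq of GPC were measured in mouse cells. The labels describe 19 samples; input and H3K27Ac samples were not analysed here. Read counts per gene were deposited by the authors as whole numbers, and the authors' RPKM values use the normalization read totals named per the file headers. The build was mm9 and MACS and MACS2 are named, per the submitters' processing notes; no aligner, counter or strand setting is given in the sources used here. Scores in the NFIA list were deposited by the authors without a stated meaning, as were signed distances in the SOX lists.

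Counts came to 80.9% to 83.1% of mapped reads. Tests used edgeR 4.0.16 under R 4.3.3 (TMM, default filterByExpr, robust glmQLFit and glmQLFTest), Benjamini-Hochberg over 13588 genes, called at 0.05. The filter can keep a gene through the group in which it is higher, even when the other group alone would fail it. SE is the log2 change over the square root of F. The common biological coefficient of variation was 0.108. The fit was run on simulated data in which far fewer genes changed than were called here. The outcome of that run does not measure the error rate of these calls. Replicates of a group differed by more than sampling noise, with a chi-square per gene of at least 2.00. Intervals on counts cover counting error only. Gene symbols were matched exactly; peaks overlapped at 1 bp or more.

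Named genes were the 9 factors and, per list, the 2 largest rises and falls past the threshold with groups apart. Some genes that this rule names are not reported here. The factors and lists (other forebrain factors, midbrain and isthmus, hindbrain and caudal, Hox, retinoic acid response, cofactors, Nr2e1-repressed genes and the markers of other cells) were chosen with earlier results of these data known. Alternatives covered DESeq2 1.42.0, limma 3.58.1 (voom, and log2(RPKM + 0.1)), scaling, filters, a replicate block and each library left out. The labels do not say whether the shared replicate numbers pair the samples, so the main fit did not use them as pairs.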

Additional observations from a re-analysis of the deposited data

Results flagged for a closer look

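In the 4 GPC libraries, GPC replicate 3 stood apart from the others for Otx2, at 0.0515 RPKM where the other 3 were at 0. The same library stood apart for Emx1, at 0.0379 RPKM where the other 3 were at 0. These values rest on 2 reads of Otx2 and 1 read of Emx1 in the deepest library. When all reads of a gene fall in 1 library it must stand apart from zeros, so the usual rate of about 1 in 20 groups by chance does not apply to them, and no difference is read from these values.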

How the results depend on the processing

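Over the other settings run Lhx2 (log2 change -1.82 to -1.53), Gbx2 (-0.74 to -0.65) and En2 (0.77 to 0.96) kept their direction and stayed past the threshold. Emx2 ran from 0.19 to 0.36 and passed without glia replicate 3 alone. En1 never passed, reached 0.18 without GPC replicate 3, and turned to -0.013 without GPC replicate 2 and -0.092 without glia replicate 3. Leaving out 1 library gave 1 to 2 of the 9 factors higher in glia. With at least 50 counts in 3 libraries, 9 of 30 other regional genes rose, against 15 of 45. Without the low count filter the hindbrain and caudal median was 0.45, the forebrain median 0.86 and the midbrain and isthmus median 0.44. The forebrain median was -0.17 with at least 50 counts and -0.0086 to 0.40 with 1 library left out. By symbol alone 1 SOX3 peak remained for Gbx2. The causes of these shifts were not tested. With the replicate number as a block (replicates 1 to 3), the log2 change was -1.78 for Lhx2, -0.68 for Gbx2 and 0.77 for En2, and the calls among the 9 factors were the same. The unblocked fit of these libraries is the one without GPC replicate 4. Same-numbered libraries had deviations correlated at -0.020, 0.14 and 0.068, so the numbers were not taken as pairs. Otx1, Otx2, Emx1 and Nr2e1 are limited by depth, and glia replicate 2, the shallowest library, had 6897294 counted reads.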

Other observations

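Genes listed as cofactors of these regional factors, LIM-only genes that can compete for a cofactor among them, were mostly read above the 9 factors. In glia 17 of 21 and in GPC 15 of 21 averaged more than the highest of the 9. Of 21 listed all were tested, 5 rose and 9 fell in glia, beside 35.2% higher and 35.2% lower over all tested genes. The median log2 change of the 21 was -0.26. Lmo4, a LIM-only protein that competes for the LIM cofactor Ldb1, fell to 61.8 ± 0.810 RPKM in glia (SD, n = 3) against 205.7 ± 34.1 RPKM in GPC (SD, n = 4), a log2 change of -1.78 ± 0.13. Lmo1, a second LIM-only gene, fell by 1.61 ± 0.13 on the log2 scale. Ldb2, a LIM domain binding cofactor, rose to 2.46 ± 0.390 RPKM in glia against 0.255 ± 0.0704 RPKM in GPC (3.26 ± 0.22), and the corepressor gene Tle4 rose by 0.36 ± 0.062. The largest adjusted p of these 4 was 0.00047 (edgeR). Ldb1, the main partner of Lhx2, stood at 91.3 RPKM in glia and 99.7 RPKM in GPC and did not pass (adjusted p = 0.112 by edgeR), and was named after its value was seen.

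Genes that Nr2e1 represses in mouse neural stem cells went different ways while Nr2e1 itself was nearly unread in both groups. Of 5 listed, 3 rose and 1 fell, beside 35.2% higher and 35.2% lower over all tested genes, with a median log2 change of 2.16. Gfap, the astrocyte intermediate filament, rose by 8.54 ± 0.44 on the log2 scale and Aqp4, the astrocyte water channel, by 5.57 ± 0.16. Cdkn1a, a cell cycle inhibitor, fell to 65.6 ± 2.55 RPKM in glia against 128 ± 14.9 RPKM in GPC (a log2 change of -0.999). The largest adjusted p of the 3 was 6.58e-06 (edgeR). Their members overlap the astrocyte markers, so the 2 lists are not independent.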
